A study of Homo sapiens with 27 samples.

Results

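Lower glycolysis runs from aldolase to pyruvate kinase, and 9 genes of this segment were followed in prostate cancer cells with reduced CPSF1: ALDOA, ALDOC, TPI1, GAPDH, PGK1, PGAM1, ENO1, ENO2 and PKM. They were taken by name from a table of exon counts and make up 9 of its 20268 genes. RNA-seq was done on 3 prostate cancer lines: LNCaP, which depends on androgen, and its derivative LNCaP95 and the line 22Rv1, both of which grow without it. Lentivirus carried a non-targeting hairpin (CTRL sh) or either of 2 hairpins to CPSF1 mRNA, named CPSF1 sh1 and CPSF1 sh2, infected cells were selected with puromycin, and RNA was taken 72 h after plating 500000 cells in each well. Every group had 3 biological replicates, numbered 1 to 3, which gave 9 groups and 27 libraries. Controls thus carry a vector and drug selection too, each line is an infected population under a constitutive hairpin, and LNCaP95 cells were kept in phenol red-free medium, so that line and medium cannot be told apart. One library, LNCaP CPSF1 sh1 replicate 3, stood apart from its group by holding counts of genes of another line. Of 127 genes above 20 CPM (counts scaled to the library total) in every 22Rv1 CTRL sh library and below 0.5 CPM in every LNCaP CTRL sh library, all 127 had counts in it, at a median of 6.39% of their 22Rv1 level, against at most 0.257% in any other LNCaP library. In no comparison of this kind between 2 lines did another library reach 1%, and LNCaP values are given below with and without that library where they moved.

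Aldolase splits fructose 1,6-bisphosphate into a pair of 3-carbon sugars, which triose phosphate isomerase interconverts. GAPDH oxidises the product, phosphoglycerate kinase makes ATP from it, phosphoglycerate mutase and enolase rearrange it, and pyruvate kinase makes pyruvate and more ATP. Aldolase and enolase are encoded by several genes in mammals: ALDOA and ENO1 are the widespread forms, while ALDOC and ENO2 are best known from brain and neurons, ENO2 being the neuron-specific enolase used as a marker of neuroendocrine prostate tumours. CPSF1 is the largest subunit of the complex that recognises the AAUAAA signal before an mRNA is cleaved and polyadenylated.

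The 2 less abundant isoforms, ALDOC and ENO2, fell furthest. In LNCaP cells ENO2 mRNA dropped to 17.6% and ALDOC to 29% of the CTRL sh level, and in LNCaP95 cells to 27.1% and 28.2%, while the major enolase ENO1 kept 84.7% and 63.4%. Next came PGK1 in LNCaP cells, at 56.3%, and ALDOA (44.8%) and then PGK1 (51.2%) in LNCaP95 cells. In 22Rv1 cells ALDOC again fell, to 55.1%, but ENO2, which is most abundant in that line, was at 92.5% and did not pass the test with the hairpins pooled. PGAM1 passed the test in LNCaP95 cells, at 78.6%, and not in the other lines.

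Levels are in CPM after scaling by TMM, a factor that equalises the bulk of genes between libraries. Library totals ranged from 8515624 to 15904518 counts (median 11058723), and mitochondrial genes took 1.49 to 2.30% of them. CPSF1 itself lay at 150.8 to 153.1 CPM with CTRL sh and at 86.2 to 108.2 CPM with the hairpins in LNCaP cells, with 96.3 to 127.0 and 56.8 to 68.1 CPM as the LNCaP95 ranges and 179.7 to 186.8 and 109.6 to 139.9 CPM as those of 22Rv1, and no overlap within a line. The 5 prostate luminal markers KRT8, KRT18, HOXB13, FOLH1 and KLK3 were above 2 CPM in every library. None of KRT5, KRT14 and TP63, which mark basal cells, was above 2 CPM in every library of a line, with a summed level in LNCaP cells of 1.27 to 2.12 CPM with CTRL sh and 3.79 to 6.29 CPM with the hairpins, and at most 5.99 CPM elsewhere. PTPRC and CD3E, which mark blood cells, summed to at most 0.369 CPM. COL1A1 and COL3A1, of fibroblasts, summed to between 11.2 and 72.8 CPM, and the endothelial gene VWF was at 22.5 to 28.2 CPM in LNCaP CTRL sh and 9.30 to 12.7 CPM in LNCaP knockdown libraries. Summed, these luminal markers went from between 3451 and 3472 CPM to between 2607 and 2841 CPM with the hairpins in LNCaP cells and from between 3995 and 4126 CPM to between 2828 and 2952 CPM in LNCaP95 cells, and the groups overlapped in 22Rv1 cells. Most of this was KLK3, whose mean went from 1113 to 359.8 CPM in LNCaP and from 2017 to 1043 CPM in LNCaP95 cells, while KRT8 was higher with the hairpins in LNCaP (421.4 and 544.2 CPM) and HOXB13 in LNCaP95 cells (360.4 and 435.1 CPM). The part of these shifts in the results below was not tested. As the samples are bulk RNA, fewer cells of a kind and less RNA per cell cannot be told apart.

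On GRCh37, the build of the counts, GAPDH (chr12:6643093-6647537), TPI1 (chr12:6976283-6980112) and ENO2 (chr12:7022909-7032861) lie on the plus strand of the same 389.8 kb of chromosome 12. ALDOA is on chromosome 16 (30064411 to 30081741, plus strand), ALDOC on chromosome 17 (26900133 to 26904282, minus), PGK1 on X (77320685 to 77384793, plus), PGAM1 on chromosome 10 (99185917 to 99193198, plus), ENO1 on chromosome 1 (8921061 to 8939308, minus) and PKM on chromosome 15 (72491370 to 72524164, minus). Counts cover all exons of a gene, UTRs included, on its own strand, over exon lengths of 2218 bases (GAPDH) to 5725 bases (PGK1). They do not separate splice forms such as the M1 and M2 products of PKM. No exon base was shared with another gene of the table on the same strand. Processed pseudogenes are a limit for some members: the annotation names 65 for GAPDH, 13 for PGAM1, 5 for PKM, 4 each for TPI1 and ENO1, 2 each for ALDOA and PGK1 and none for ALDOC or ENO2, and how reads shared with them were assigned is not known here.

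As most members were lower in LNCaP and LNCaP95 cells, their RefSeq promoters (GRCh38.p14, from 250 bases before to 50 bases after the start) were searched on both strands for ACGTG, the core of the hypoxia response element, and for its variant GCGTG. The core was present in 8 of 12 promoters of the members and in 6 of the 9 genes (ALDOA, ALDOC, TPI1, GAPDH, PGK1, ENO2), and in 21.4% of all 35116 promoters of this length. GCGTG was present in 5 of the 12 promoters (ALDOC, TPI1, PGK1, ENO1, PKM) and in 36.5% of all. The shares of all promoters were not matched for base content. G and C made up 53.3 to 75% of the members' promoters, against a median of 58.7% over all, of which 45.9% were above 60%. PGAM1 had neither in its window. One match is shown for each of the 6 genes with ACGTG, among them the 3 with the largest falls in LNCaP cells (ENO2, ALDOC, PGK1), read along the gene with the motif in capitals, which for TPI1 is its reverse complement. A match is a description of these letters, not a site of binding.
ALDOA (chr16:30064376-30064400, 111 bases before the start): cagggaggccACGTGatccgagtcc
ALDOC (chr17:28577120-28577144, 239 bases before the start): agtgcccggcACGTGgtaaagggat
TPI1 (chr12:6868078-6868102, 17 bases before the start): tgcgccgccgCACGTagccccagac
GAPDH (chr12:6535174-6535198, 80 bases before the start): ctgcggggtcACGTGtcgcagagga
PGK1 (chrX:78104036-78104060, 202 bases before the start): ggcgtgccggACGTGacaaacggaa
ENO2 (chr12:6914452-6914476, 118 bases before the start): ccgcgctcgtACGTGcgcctccgcc
In ALDOA, ALDOC and GAPDH the match shown overlaps one on the other strand, and each was counted on both. By window, ALDOC and PGK1 held 3 matches each, GAPDH held 2 and ENO2 held 1. The ALDOA windows held 1, 2 and 1, and those of TPI1 held 0 and 1.

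The first question was how much of each enzyme mRNA the 3 lines made with CTRL sh. Together the 9 genes took 0.878% ± 0.0113 of all counts in LNCaP cells (SD, n = 3), and LNCaP95 and 22Rv1 cells gave 1.33% ± 0.0304 and 0.649% ± 0.0131. Levels of different genes are compared per exon length, as CPM per kilobase of exon (RPKM). In LNCaP cells GAPDH was highest, at 913.3 ± 8.29 RPKM, and ENO1 was next, at 627.1 ± 13.5 RPKM. PKM (347.2 ± 1.95) and TPI1 (344.2 ± 10.6) overlapped, then came ALDOA (296.0 ± 6.82), PGK1 (201.7 ± 3.20), PGAM1 (138.8 ± 2.07), ALDOC (77.4 ± 1.74) and ENO2 (34.0 ± 2.79). GAPDH thus ranked 13 and ENO2 ranked 1953 among all 20268 genes.

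In LNCaP95 cells ENO1 stood first, at 1364 ± 32.8 RPKM, ahead of GAPDH at 1135 ± 46.2 RPKM, and ranked 9 among all genes. TPI1 (450.9 ± 8.65), ALDOA (447.5 ± 33.5), PKM (401.3 ± 13.9) and PGK1 (387.5 ± 2.44) followed as a run in which each overlapped its neighbour. ALDOC (191.2 ± 18.8) was level with PGAM1 (181.8 ± 4.17), and ENO2 was at 52.4 ± 4.59 RPKM. In 22Rv1 cells GAPDH led again at 892.4 ± 39.6 RPKM, then TPI1 (410.7 ± 14.03), ENO1 (353.3 ± 5.91), PKM (216.9 ± 2.90) and ALDOA (161.2 ± 0.327). PGK1 (90.3 ± 2.73) and PGAM1 (90.2 ± 2.20) overlapped, ENO2 was at 71.1 ± 1.43 RPKM, and ALDOC came last at 28.8 ± 1.94 RPKM and rank 2395.

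**Figure D1:**
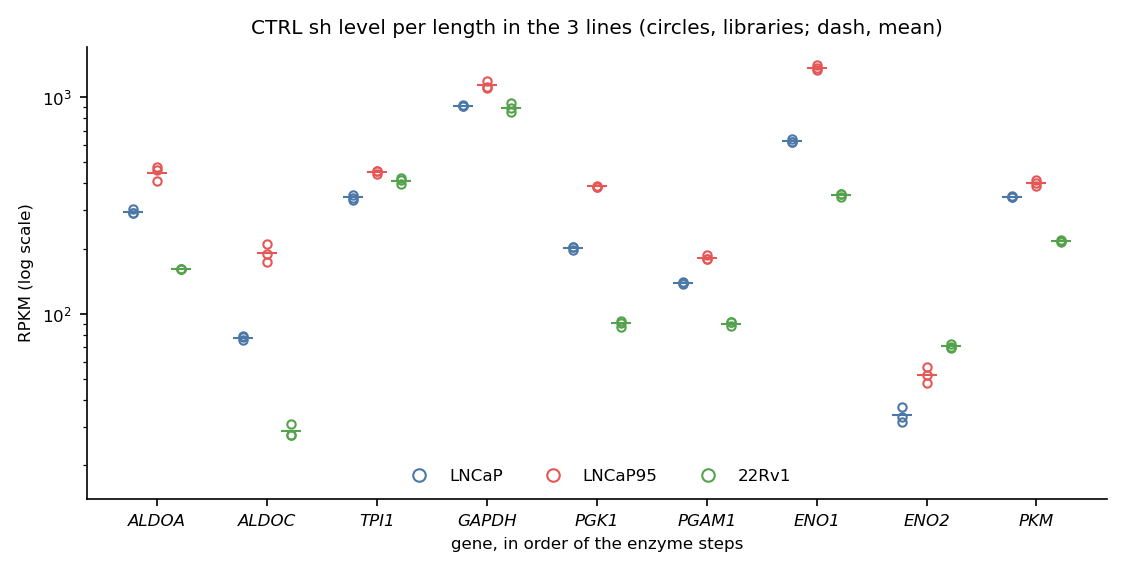
CTRL sh level of each gene in RPKM on a log axis (circles, the 3 libraries of a line; dashes, their mean), with genes in order of the enzyme steps. LNCaP95 sits above LNCaP for all 9 genes, and ENO2 alone is highest in 22Rv1 cells.

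In a fit of all 27 libraries, all 9 genes were higher in LNCaP95 than in LNCaP CTRL sh cells, where 80.3% of the 10317 genes tested differed in either direction. The log2 difference ran from 0.21 for PKM (SE 0.0348, adjusted p = 2.53e-06) to 1.31 for ALDOC (SE 0.0695, adjusted p = 3.47e-17), with ENO1 at 1.12 and PGK1 at 0.94. Between 22Rv1 and LNCaP cells, 8 of 9 differed (82.5% of all genes did). ENO2 (1.09, SE 0.0971) and TPI1 (0.28, SE 0.040) were higher in 22Rv1, and ALDOC (-1.39), PGK1 (-1.13), ALDOA (-0.85), ENO1 (-0.80), PKM (-0.65) and PGAM1 (-0.59) were lower. GAPDH differed by -0.0051 (SE 0.0411, adjusted p = 0.911). Between 22Rv1 and LNCaP95 cells, all 9 differed (84.3% of all genes did): ENO2 was higher in 22Rv1 by 0.47, and the others were lower, by -0.11 for TPI1 (adjusted p = 0.0144) to -2.70 for ALDOC. The TPI1 difference did not pass with library size scaling (-0.050, adjusted p = 0.222) or without 22Rv1 CTRL sh replicate 1 (-0.081, adjusted p = 0.0904).

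The next question was how each enzyme mRNA changed with CPSF1 shRNA. The aldolases come first. ALDOC was at 221.7, 219.0 and 212.2 CPM in the LNCaP CTRL sh libraries, at 68.8, 72.3 and 62.8 CPM with CPSF1 sh1 and at 52.4, 62.6 and 57.9 CPM with CPSF1 sh2. All 6 knockdown libraries lay far below the controls. The pooled log2 fold change was -1.79 (SE 0.0676, adjusted p = 4.76e-11 from edgeR), which put ALDOC at position 26 from the lowest of 11096 genes.

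In LNCaP95 cells ALDOC was at 592.2, 486.9 and 533.8 CPM with CTRL sh, at 212.1, 214.1 and 197.5 CPM with CPSF1 sh1 and at 94.8, 103.8 and 85.6 CPM with CPSF1 sh2. The hairpins formed separate steps below the controls, sh2 under sh1, and the pooled change of -1.82 carried a wider error (SE 0.261, adjusted p = 5.4e-05). In 22Rv1 cells, where ALDOC started lowest, it was at 78.1, 87.4 and 77.8 CPM with CTRL sh, at 47.3, 48.5 and 62.7 CPM with CPSF1 sh1 and at 36.9, 35.6 and 37.6 CPM with CPSF1 sh2. Groups did not overlap there either, and the change of -0.86 (SE 0.135, adjusted p = 4.55e-04) was the largest fall among the 9 genes in that line.

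ALDOA, the muscle and general form, was at 1319, 1268 and 1267 CPM in LNCaP CTRL sh libraries and at 928.1 to 1093 CPM in the 6 knockdown libraries (-0.37, SE 0.0452, adjusted p = 5.35e-06). In LNCaP95 cells it was at 1992, 1778 and 2056 CPM with CTRL sh, at 984.3 to 1044 CPM with CPSF1 sh1 and at 716.1 to 765.0 CPM with CPSF1 sh2. The CPSF1 sh2 libraries formed a second step below CPSF1 sh1 (-1.16, SE 0.118, adjusted p = 3.71e-06). In 22Rv1 cells the controls were tight, at 698.5 to 701.1 CPM, and the knockdown libraries, at 560.6 to 683.7 CPM, all lay under them (-0.21, SE 0.0509, adjusted p = 0.00792). The call was lost with CPSF1 sh1 alone (-0.14, adjusted p = 0.0738).

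TPI1 and GAPDH, the next steps, moved by smaller amounts in LNCaP and more in LNCaP95 cells. TPI1 was at 843.5 to 897.1 CPM in LNCaP CTRL sh and 765.1 to 807.2 CPM in knockdown libraries (-0.13, SE 0.0327, adjusted p = 0.00378). In LNCaP95 it was at 1114 to 1155 CPM and 842.9 to 932.4 CPM (-0.36, SE 0.044, adjusted p = 1.42e-05). Groups were apart in both lines. In 22Rv1 cells the ranges of 1001 to 1071 CPM and 930.8 to 1097 CPM overlapped (-0.073, SE 0.0471, adjusted p = 0.271).

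GAPDH, often used as a reference gene, was at 2047, 2012 and 2018 CPM with CTRL sh in LNCaP cells, against 2025, 1851 and 1877 CPM with CPSF1 sh1 and 1864, 1783 and 1818 CPM with CPSF1 sh2. One knockdown library, CPSF1 sh1 replicate 1, lay among the controls. The change of -0.11 (SE 0.0391, adjusted p = 0.0294) passed the test, but not without any 1 of the CTRL sh libraries (adjusted p between 0.0675 and 0.0974) and not with CPSF1 sh1 alone (-0.070, adjusted p = 0.153). In LNCaP95 cells GAPDH went from 2471, 2448 and 2636 CPM with CTRL sh to between 1585 and 1693 CPM in all 6 knockdown libraries, a clear separation (-0.63, SE 0.0417, adjusted p = 1.48e-07). In 22Rv1 cells the ranges, 1896 to 2071 CPM and 1816 to 2075 CPM, overlapped (-0.060, SE 0.0442, adjusted p = 0.339).

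PGK1, the first ATP-producing step, fell in all 3 lines. It was at 1167, 1164 and 1134 CPM with CTRL sh in LNCaP cells, at 613.8, 615.4 and 603.7 CPM with CPSF1 sh1 and at 633.9, 707.8 and 694.7 CPM with CPSF1 sh2 (-0.83, SE 0.0479, adjusted p = 2.97e-09). In LNCaP95 cells it was at 2234, 2209 and 2211 CPM with CTRL sh and at 1016 to 1274 CPM in the knockdown libraries (-0.97, SE 0.0731, adjusted p = 4.02e-07). In 22Rv1 cells it was at 499.5 to 529.5 CPM with CTRL sh and at 405.4 to 456.3 CPM with the hairpins (-0.29, SE 0.0429, adjusted p = 2.68e-04). No knockdown library reached a control in any line.

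PGAM1, the mutase of the following step, had the smallest change of the 9 genes in LNCaP and 22Rv1 cells. In LNCaP cells the ranges of 350.9 to 361.5 CPM with CTRL sh and 338.1 to 365.7 CPM with the hairpins overlapped (-0.013, SE 0.0332, adjusted p = 0.752), as did 225.1 to 235.2 and 220.4 to 236.5 CPM in 22Rv1 cells (-0.017, SE 0.0407, adjusted p = 0.796). In LNCaP95 cells it fell from between 459.1 and 479.0 CPM to between 354.3 and 382.9 CPM (-0.35, SE 0.0403, adjusted p = 1.02e-05). PGAM4, a near-identical retrocopy of PGAM1, had 2.07 to 5.93 CPM over all libraries, against 220.4 to 479.0 CPM for PGAM1.

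The enolases split. ENO1 went from 1539, 1486 and 1481 CPM with CTRL sh to between 1207 and 1298 CPM in LNCaP (-0.24, SE 0.033, adjusted p = 1.85e-05) and from 3255, 3194 and 3350 CPM to between 2019 and 2220 CPM in LNCaP95 cells (-0.66, SE 0.0431, adjusted p = 1.45e-07). In 22Rv1 cells it went from between 829.9 and 856.0 CPM to between 740.8 and 820.1 CPM (-0.13, SE 0.0379, adjusted p = 0.018). Groups did not overlap in any line. The 22Rv1 call was lost without CTRL sh replicate 2 (adjusted p = 0.0891) or replicate 3 (adjusted p = 0.0779), and with CPSF1 sh1 alone (-0.13, adjusted p = 0.0731).

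ENO2 was at 108.2, 113.5 and 126.6 CPM in LNCaP CTRL sh libraries, at 16.6, 15.9 and 29.1 CPM with CPSF1 sh1 and at 15.6, 23.0 and 21.1 CPM with CPSF1 sh2. With a log2 fold change of -2.50 (SE 0.127, adjusted p = 9.15e-10) it stood at position 11 from the lowest of 11096 genes. Replicate 3 of CPSF1 sh1, the library that carried 22Rv1 genes, was the highest of the 6, and 22Rv1 cells made more ENO2 than LNCaP cells; without it the change was -2.63 (adjusted p = 1.09e-10). In LNCaP95 cells it was at 194.7, 163.3 and 178.1 CPM with CTRL sh, at 63.1, 69.0 and 53.96 CPM with CPSF1 sh1 and at 34.2, 38.2 and 29.3 CPM with CPSF1 sh2, again in 2 steps (-1.88, SE 0.204, adjusted p = 5.96e-06, position 22 of 11143).

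In 22Rv1 cells the hairpins parted for ENO2. It was at 241.2, 247.8 and 238.3 CPM with CTRL sh, at 230.3, 249.1 and 262.4 CPM with CPSF1 sh1 and at 201.5, 204.3 and 200.7 CPM with CPSF1 sh2. The CPSF1 sh1 libraries surrounded the controls, while all CPSF1 sh2 libraries lay below them. The pooled change was -0.11 (SE 0.079, adjusted p = 0.314), and the mean of the 2 hairpin effects, fitted with each hairpin as a group, was -0.12 (SE 0.0406, adjusted p = 0.0309).

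PKM, the last step, was at 1342, 1329 and 1330 CPM in LNCaP CTRL sh and at 1128 to 1225 CPM in knockdown libraries (-0.15, SE 0.033, adjusted p = 0.00141). In LNCaP95 it was at 1486 to 1593 CPM and 1196 to 1261 CPM (-0.34, SE 0.039, adjusted p = 8.77e-06). Groups were apart in both lines. In 22Rv1 cells the ranges of 821.2 to 843.1 CPM and 774.6 to 860.3 CPM overlapped (-0.071, SE 0.0388, adjusted p = 0.194).

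**Figure D2:**
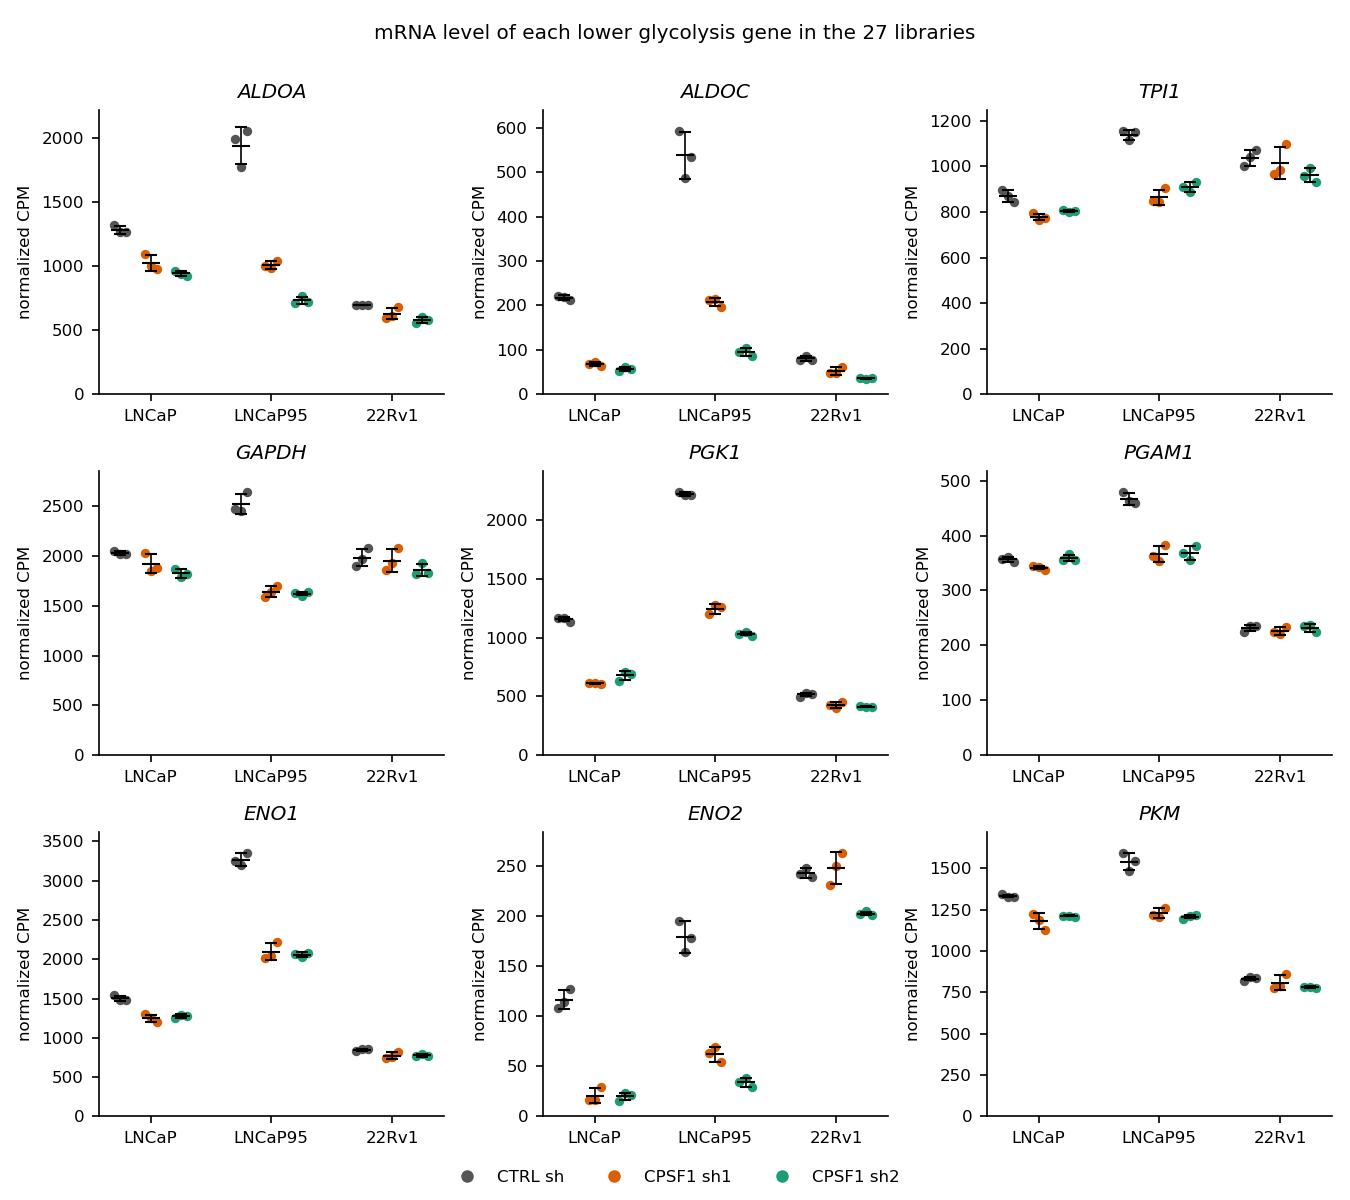
Normalized CPM of each gene in every library (points; 3 per group) with the group mean and SD (black), by line and hairpin, each panel on its own axis from 0. ALDOC, ENO2 and PGK1 show wide gaps between CTRL sh and the hairpins in LNCaP and LNCaP95 cells, and ENO2 in 22Rv1 is lower with CPSF1 sh2 alone.

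By count, edgeR called 8 of 9 genes lower in LNCaP cells (31% of the 11096 genes tested were). The LNCaP95 count was 9 of 9 (33.7% of 11143). The 22Rv1 count was 4 of 9, with ALDOA, ALDOC, PGK1 and ENO1 (14.3% of 11728). Without LNCaP CPSF1 sh1 replicate 3, the LNCaP count stayed at 8, beside 31.1% of all genes. None was called higher by edgeR or by DESeq2, against 31.1%, 33.2% and 12.7% of all genes by edgeR. All 6 knockdown libraries lay below all 3 controls for 7, 9 and 4 genes, a pattern that 29%, 29.9% and 15% of all genes showed. The median log2 fold change of the 9 genes was -0.24, -0.66 and -0.11, with the median of all genes within 0.02 of 0 in each line. Their range was wide, from -2.50 to -0.013 in LNCaP, from -1.88 to -0.34 in LNCaP95 and from -0.86 to -0.017 in 22Rv1 cells. As a share of all counts, the 9 genes went from 0.878% to 0.710% (CPSF1 sh1) and 0.716% (CPSF1 sh2) in LNCaP, from 1.33% to 0.894% and 0.816% in LNCaP95 cells, while 22Rv1 cells went from 0.649% to 0.619% and 0.588%.

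One library bears on the 22Rv1 count. CPSF1 sh1 replicate 3 held the highest level of the 3 CPSF1 sh1 libraries for all 9 genes, where it was highest for 41.8% of all genes tested. Without it, 7 of 9 were called lower (20.2% of all genes were), with TPI1 at -0.11 (adjusted p = 0.0178), ENO2 at -0.16 (adjusted p = 0.0452) and PKM at -0.095 (adjusted p = 0.0133) added to the list. Fits of CPSF1 sh1 or CPSF1 sh2 alone against CTRL sh called 2 and 8 of 9 lower, beside 8.51% and 26.3% of all genes. In raw counts, 22Rv1 CPSF1 sh1 replicate 3 gave a chi-square per degree of freedom of 7.31 against replicate 1 and 4.56 against replicate 2. Replicates 1 and 2 gave 1.97 between them. Within groups the range was 1.39 to 7.31 over 27 pairs, with 5.22 between LNCaP95 CTRL sh replicates 1 and 2.

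The hairpins were then compared, in fits with 3 groups per line whose 2 hairpin effects share the 3 CTRL sh libraries. In LNCaP cells 7 genes were called lower with CPSF1 sh1 (31.3% of all genes were) and 8 with CPSF1 sh2 (32.5%). All 9 were called with each hairpin in LNCaP95 cells (33.3% and 36.9%). In 22Rv1 cells 4 were called with CPSF1 sh1 (11.1%) and 5 with CPSF1 sh2 (20.9%), ENO2 being the fifth. ENO2 was at -0.26 (SE 0.0473, adjusted p = 3.97e-04) with CPSF1 sh2 and 0.025 (SE 0.0469, adjusted p = 0.761) with CPSF1 sh1. The fits of 1 hairpin alone, whose spread leaves out the other hairpin, called 2 and 8 there. With CPSF1 sh2 alone, TPI1, GAPDH and PKM were also called (edgeR adjusted p = 0.00586, 0.0214 and 0.00892).

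The direct difference between hairpins was largest in LNCaP95 cells and confined there to the 4 genes ALDOC, ENO2, ALDOA and PGK1. Relative to CPSF1 sh1, CPSF1 sh2 gave less ALDOC (-1.13, SE 0.068, adjusted p = 2.65e-10), less ENO2 (-0.87, SE 0.0938, adjusted p = 8.76e-07), less ALDOA (-0.46, SE 0.0485, adjusted p = 6.94e-07) and less PGK1 (-0.27, SE 0.038, adjusted p = 2.64e-05). The ALDOC difference was at position 7 from the lowest of 11143 genes, of which 17.7% were lower and 16.5% higher with CPSF1 sh2. The other 5 genes differed by between -0.021 and 0.079 with an SE near 0.04. TPI1, at 0.079, passed only without CPSF1 sh1 replicate 3 (0.12, adjusted p = 0.0358). CPSF1 mRNA itself differed by 0.00041 (SE 0.0841, adjusted p = 0.998) between these hairpins.

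In 22Rv1 cells CPSF1 sh2 again gave less ALDOC (-0.52, SE 0.0951, adjusted p = 0.00283) and less ENO2 (-0.29, SE 0.0474, adjusted p = 0.00131), where 5.85% of all genes were lower and 5.47% higher with CPSF1 sh2. ALDOA passed there without CPSF1 sh1 replicate 1 alone (-0.16, adjusted p = 0.0262). In LNCaP cells ALDOC was lower with CPSF1 sh2 (-0.24, SE 0.0613, adjusted p = 0.0131) and PGK1 was higher (0.15, SE 0.0377, adjusted p = 0.0098), the opposite direction from LNCaP95, with 8.24% of all genes lower and 6.53% higher. Both LNCaP calls rested on single libraries. ALDOC did not pass without CPSF1 sh1 replicate 2 (adjusted p = 0.0921) or CPSF1 sh2 replicate 1 (adjusted p = 0.0562), PGK1 not without CPSF1 sh2 replicate 2 (adjusted p = 0.0687) or replicate 3 (adjusted p = 0.0524), and ALDOA passed without CPSF1 sh1 replicate 3, the library that carried 22Rv1 genes (-0.15, adjusted p = 0.0219), or CPSF1 sh2 replicate 1 (-0.13, adjusted p = 0.0488). ENO2 differed by -0.043 (SE 0.170, adjusted p = 0.905), or by 0.31 (adjusted p = 0.143) without that library. CPSF1 mRNA was -0.14 (SE 0.0527, adjusted p = 0.0773) in LNCaP and 0.067 (SE 0.0688, adjusted p = 0.578) in 22Rv1 cells between hairpins.

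**Figure D3:**
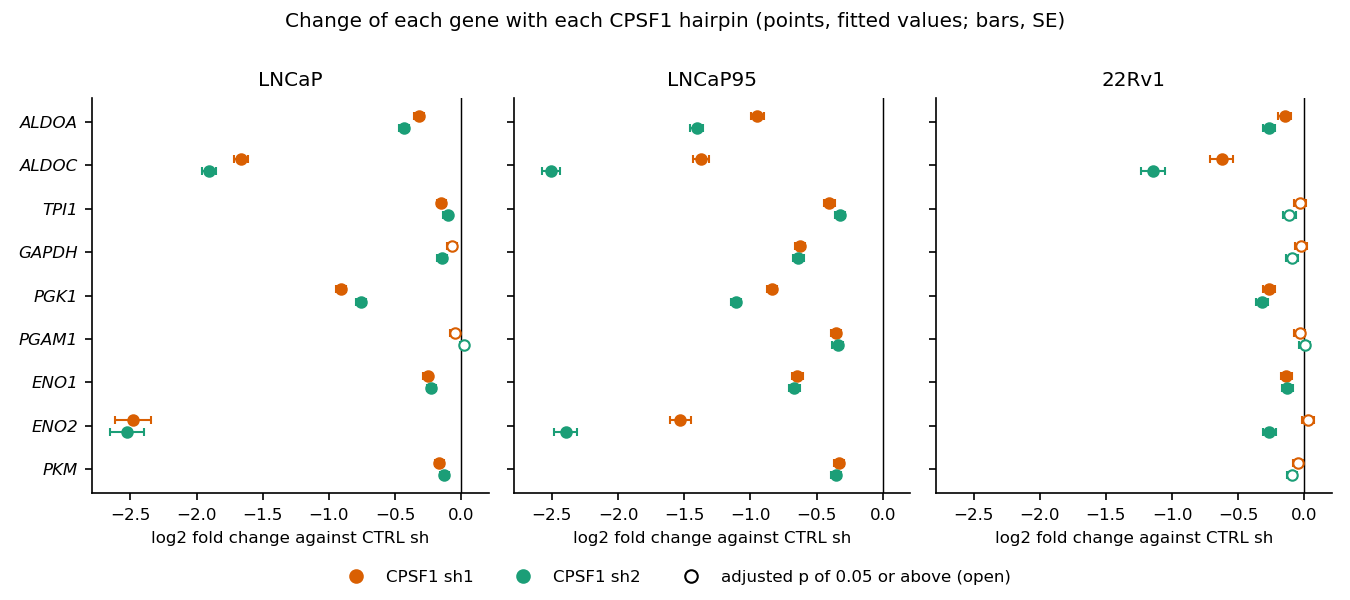
Log2 fold change of each gene against CTRL sh with CPSF1 sh1 and CPSF1 sh2 in the 3 lines (points, edgeR estimates; bars, SE; open points, adjusted p of 0.05 or above). The hairpins part most for ALDOC and ENO2 in LNCaP95 cells and lie together for GAPDH, PGAM1, ENO1 and PKM there.

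The balance of isoforms within each library needs no scaling between libraries. Per exon length, ALDOC made up 20.5 to 21.0% of aldolase A plus C mRNA in LNCaP CTRL sh libraries and 7.72 to 10.0% in knockdown libraries. In LNCaP95 cells it made up 28.6 to 31.5% with CTRL sh, 22.6 to 25.1% with CPSF1 sh1 and 15.5 to 17.3% with CPSF1 sh2. In 22Rv1 cells it made up 14.7 to 16.2% with CTRL sh and 8.35 to 12.4% with the hairpins. The ALDOC share was lower in every knockdown library than in every control of its line. The mean log2 ratio of ALDOC to ALDOA shifted by -1.42 in LNCaP (exact permutation test, 2-sided, p = 0.0119, adjusted over 6 tests 0.0179), by -0.76 in LNCaP95 (exact p = 0.0238, adjusted 0.0286) and by -0.68 in 22Rv1 cells (exact p = 0.0119, adjusted 0.0179). The smallest p that 84 splits of 3 and 6 libraries allow is 0.0119.

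ENO2 made up 4.70 to 5.67% of enolase 1 plus 2 mRNA in LNCaP CTRL sh libraries and 0.866 to 1.67% in knockdown libraries. In LNCaP95 cells these shares were 3.47 to 4.03% and 0.978 to 2.31%. The log2 ratio of ENO2 to ENO1 shifted by -2.31 in LNCaP and by -1.31 in LNCaP95 cells (each exact permutation p = 0.0119, adjusted 0.0179), and the LNCaP shift was -2.43 without CPSF1 sh1 replicate 3. In 22Rv1 cells ENO2 held 16.4 to 17.0% with CTRL sh and 15.4 to 18.9% with the hairpins, a shift of 0.014 (exact permutation p = 0.845). That mean hides opposite values, 0.16 with CPSF1 sh1 and -0.14 with CPSF1 sh2. The CPSF1 sh1 libraries, at 17.9 to 18.9%, lay above all controls, and the CPSF1 sh2 libraries, at 15.4 to 15.6%, below them. ENO2 thus had its largest share in 22Rv1 cells, with and without the hairpins.

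**Figure D4:**
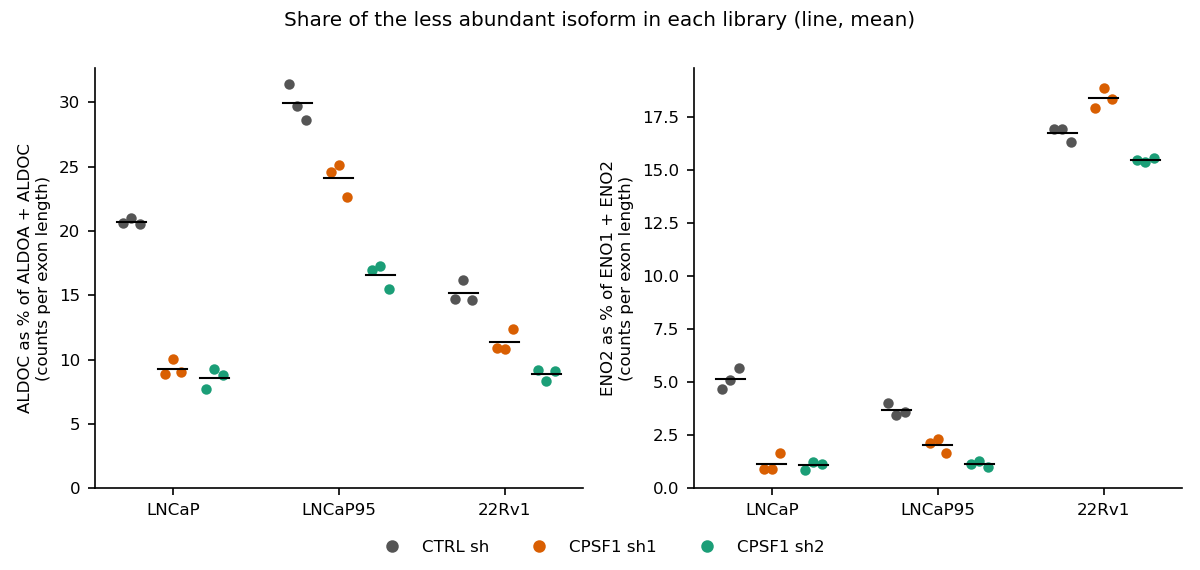
ALDOC as a percentage of ALDOA plus ALDOC and ENO2 as a percentage of ENO1 plus ENO2, in counts per exon length, for each library (points) with group means (lines). ALDOC shares drop in all 3 lines, while ENO2 shares drop in LNCaP and LNCaP95 and stay between 15.4 and 18.9% in 22Rv1 knockdown libraries.

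Whether the change itself differed between lines was tested as an interaction over all 27 libraries, taking the mean of the 2 hairpin effects in each line. The change was more negative in LNCaP95 than in LNCaP for 7 genes, by -0.12 for PGK1 to -0.78 for ALDOA (SE 0.0586, adjusted p = 1.1e-12), and less negative for ENO2 (0.56, SE 0.143, adjusted p = 0.00129, and 0.73 without LNCaP CPSF1 sh1 replicate 3). ALDOC did not pass (-0.14, SE 0.0907, adjusted p = 0.194), except without LNCaP95 CTRL sh replicate 2 (-0.21, adjusted p = 0.047). Of all genes, 59.7% differed in one direction or the other. The PGK1 difference was lost with library size scaling (-0.046, adjusted p = 0.407) and without LNCaP CTRL sh replicate 3 (adjusted p = 0.0618).

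Between 22Rv1 and LNCaP, 5 of 9 genes differed (50.3% of all genes did), each less negative in 22Rv1: ENO2 by 2.40 (SE 0.134, adjusted p = 3.71e-15, and 2.57 without LNCaP CPSF1 sh1 replicate 3), ALDOC by 0.91, PGK1 by 0.55, ALDOA by 0.18 and ENO1 by 0.12. The ENO1 difference (adjusted p = 0.0327) was lost on leaving out any 1 of 6 libraries (LNCaP CTRL sh replicate 1, CPSF1 sh1 replicate 3 and CPSF1 sh2 replicate 1, and 22Rv1 CTRL sh replicate 1, CPSF1 sh1 replicate 3 and CPSF1 sh2 replicate 2), with adjusted p between 0.0518 and 0.113. Between 22Rv1 and LNCaP95, all 9 differed (61.6% of all genes did), by 0.27 for PKM (adjusted p = 3.41e-06) to 1.84 for ENO2 (adjusted p = 7.51e-14). These 3 contrasts share libraries in pairs. The change of CPSF1 mRNA also differed, by 0.39 between 22Rv1 and LNCaP95 (SE 0.0951, adjusted p = 8.23e-04). It differed by -0.22 between LNCaP95 and LNCaP (SE 0.0964, adjusted p = 0.0476). Between 22Rv1 and LNCaP it did not pass (0.16, SE 0.0926, adjusted p = 0.144). Its part in the differences above was not tested.

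Several paralogs of the same steps had few counts: GAPDHS and PGK2 had at most 2 in any library and PKLR at most 17. ENO3, the muscle enolase, fell in all 3 lines (-0.44, -0.58 and -0.47 in LNCaP, LNCaP95 and 22Rv1, adjusted p = 8.47e-05, 4.18e-05 and 0.0123). PGAM2, the muscle mutase, was a feature of 22Rv1 cells, at 82.9 ± 4.40 CPM with CTRL sh against 0.48 ± 0.17 in LNCaP and 0.74 ± 0.03 in LNCaP95 cells (SD, n = 3), and rose there by 0.22 (SE 0.0636, adjusted p = 0.0191). Per exon length, PGAM2 in 22Rv1 cells was at 96.7 ± 5.13 RPKM with CTRL sh, against 90.2 ± 2.20 RPKM for PGAM1. With the hairpins pooled the means were 113.1 RPKM for PGAM2 and 89.3 RPKM for PGAM1. BPGM, which makes 2,3-bisphosphoglycerate, also rose in 22Rv1 cells (0.27, SE 0.0643, adjusted p = 0.00711) and was at 0.11 (adjusted p = 0.142) and 0.075 (adjusted p = 0.301) in LNCaP and LNCaP95 cells. PGAM4 did not pass in any line (-0.20, -0.27 and -0.10, adjusted p = 0.298, 0.0827 and 0.722).

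Among upper glycolysis genes, 7 of 9 tested were lower and 2 higher in LNCaP (median -0.44), 8 lower and 1 higher of 9 in LNCaP95 (-0.72), and 4 lower and 1 higher of 10 in 22Rv1 cells (-0.057). In each line the largest fall was in PFKFB4 (-1.90, -1.72 and -0.34) and the largest rise in PFKFB2 (0.87, 0.55 and 0.45), both of which make the regulator fructose 2,6-bisphosphate. Of genes for glucose and lactate handling, 4 of 5, 3 of 4 and 3 of 5 tested were lower. The largest falls were in the lactate exporter SLC16A3 in LNCaP (-1.69) and 22Rv1 cells (-1.10) and in the glucose transporter SLC2A1 in LNCaP95 cells (-1.30), and LDHB rose in LNCaP95 cells (0.19, adjusted p = 0.00289). Of 3 gluconeogenesis genes tested, 1, 3 and 2 were lower, with PCK2 lowest in each line (-0.81, -0.40 and -0.50), and PC rose in LNCaP cells (0.11, adjusted p = 0.0429). Of all genes, 31%, 33.7% and 14.3% were called lower in LNCaP, LNCaP95 and 22Rv1 cells.

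Targets of the hypoxia-inducible factors outside glycolysis were called lower for 10 of 10 tested in LNCaP (median -1.11) and 11 of 11 in LNCaP95 cells (-1.39). The 22Rv1 count was 8 of 9 (-0.46). Shares called lower over all genes tested were 31%, 33.7% and 14.3% in LNCaP, LNCaP95 and 22Rv1 cells. This list, like the others, was chosen with earlier results of these data known. NDUFA4L2 fell furthest in LNCaP (-4.12) and 22Rv1 cells (-1.75) and ANKRD37 in LNCaP95 cells (-3.28). Of the factor subunits, ARNT was lower in LNCaP (-0.54, adjusted p = 1.85e-07) and LNCaP95 cells (-0.31, adjusted p = 8.38e-05), and HIF1A was slightly higher in LNCaP (0.098, adjusted p = 0.0349) and lower in LNCaP95 cells (-0.24, adjusted p = 0.0332). That HIF1A fall was seen with CPSF1 sh1 (-0.43, adjusted p = 1.74e-08) and did not pass with CPSF1 sh2 (-0.080, adjusted p = 0.0907), a difference of 0.35 (SE 0.0419, adjusted p = 3.56e-06). In 22Rv1 cells ARNT (-0.038, adjusted p = 0.687) and HIF1A (-0.0099, adjusted p = 0.922) did not pass.

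Each library was also described by the mean of the 9 genes, in log2 CPM relative to the CTRL sh mean of its line, and all 10317 genes above 2 CPM in every library were ranked by their Pearson correlation with this profile over the 27 libraries. PGK1 lay closest among the members (r = 0.985, rank 3 of all), then ALDOC (0.957), PKM (0.929), ENO2 (0.910), ENO1 (0.909), ALDOA (0.908), TPI1 (0.855), GAPDH (0.823) and PGAM1 (0.736). Members contribute to the profile themselves, and the 27 points share lines, hairpins and controls, so that r is a description without a test. The 5 most like genes outside the set were DHPS, the deoxyhypusine synthase (0.993), C4orf3 (0.990), the translation initiation factor EIF4B (0.984), the angiogenic growth factor VEGFA (0.983), itself on the list of hypoxia-inducible factor targets, and the mitotic kinase NEK2 (0.978). All 5 fell in all 3 lines, VEGFA by -1.24, -1.39 and -0.31 and EIF4B by -0.31, -0.41 and -0.12. They were chosen for likeness to a profile that falls with the hairpins in these same libraries, so that their falls are no separate result.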

How the data were processed

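Stranded mRNA libraries were sequenced paired-end, and the authors aligned them to GRCh37 (HISAT2 2.1.0) and summed exon fragments per gene in reverse-stranded mode with featureCounts of the Subread package (2.0.3 per the labels; the methods name another version) and an Ensembl annotation. The deposited values are raw counts per gene symbol, without normalization, pooling or filtering, and 0 columns were left unmapped. Whether duplicate reads were removed is not given in the sources used here.

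Each line was fitted in R 4.3.3 with edgeR 4.0.16: genes above 2 CPM in all 9 libraries, TMM, and the quasi-likelihood F-test in its legacy form, 3 CTRL sh against 6 CPSF1 sh libraries, with Benjamini-Hochberg adjustment over all genes and a threshold of 0.05. Fits with 3 groups per line gave the hairpins, and a fit of all 27 libraries (10317 genes) gave contrasts between lines. Printed CPM and RPKM use TMM factors over the 27 libraries, and the likeness profile log2(CPM + 0.5). Isoform ratios were compared by exact permutation over 84 splits. All adjusted p-values are from edgeR unless another test is named. Each edgeR p-value tests a fitted difference against the spread between libraries within fitted groups, estimated with information shared across genes. The precision of a fitted difference is set by counting error and that spread. In the pooled fits the 6 CPSF1 sh libraries form 1 group, so that this spread also holds the difference between hairpins. For ALDOC in LNCaP95 cells the SE was 0.261 pooled and 0.0522 with the hairpins as separate groups, averaged.

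The named genes are the 9 members, CPSF1, the paralogs, the largest called rise and fall of each list per line, and the 5 most like genes. Some items of the lists are not reported here. The members and lists were chosen with earlier results of these data known. Alternatives were DESeq2 1.42.0, other scalings and filters, the edgeR 4 form, each hairpin alone or averaged, a replicate block and each library left out. Promoters came from RefSeq (GRCh38.p14) and pseudogene names from GENCODE lifted to GRCh37. The fits were tested on simulated data. Figures were drawn with matplotlib.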

Additional observations from a re-analysis of the deposited data

Results flagged for a closer look

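Dixon's test for an outlying value was not run on single genes, whose groups held 3 libraries each. For the 9 genes, 22 differences of the knockdown effect between 2 lines passed the edgeR interaction test and are listed as log2 values, where a negative value means a more negative change in the line named first. LNCaP95 against LNCaP gave -0.78 for ALDOA, -0.22 for TPI1, -0.51 for GAPDH, -0.12 for PGK1, -0.32 for PGAM1, -0.40 for ENO1 and -0.18 for PKM, and 0.56 for ENO2. 22Rv1 against LNCaP gave 0.18 for ALDOA, 0.91 for ALDOC, 0.55 for PGK1, 0.12 for ENO1 and 2.40 for ENO2. 22Rv1 against LNCaP95 gave 0.96 for ALDOA, 1.05 for ALDOC, 0.29 for TPI1, 0.57 for GAPDH, 0.67 for PGK1, 0.33 for PGAM1, 0.52 for ENO1, 1.84 for ENO2 and 0.27 for PKM. ENO2 is the one gene that lost less in LNCaP95 than in LNCaP cells. Between 50.3 and 61.6% of all genes differed in these contrasts, so that a difference by itself does not set the 9 genes apart.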

How the results depend on the processing

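The 9 of 9 lower calls in LNCaP95 held under every alternative run, DESeq2 and library size scaling kept all 12 counts of members within 1.5 times, and RLE size factors, filterByExpr, no filter and the edgeR 4 form, run on the 3 knockdown counts, kept those. In 22Rv1 cells the 4 lower calls became 2 with CPSF1 sh1 alone, 8 with CPSF1 sh2 alone, and 3 to 7 on leaving out single libraries (7 without CPSF1 sh1 replicate 3). In LNCaP cells the 2 genes that differed between hairpins became 4 with the replicate block (ALDOA and GAPDH added) and 1 to 3 on leaving out libraries. The block changed no other count by over 1.5 times and gave 8, 9 and 4 lower calls in LNCaP, LNCaP95 and 22Rv1. Replicate numbers were not taken as pairs, since deviations of same-numbered libraries correlated at over 0.1 in only 3, 3 and 1 of 9 pairs of groups. In LNCaP cells, however, same-numbered libraries reached 0.280 and differently numbered ones at most 0.0748, so that pairing remains possible in that line. Differently numbered libraries reached 0.242 in LNCaP95 and 0.286 in 22Rv1 cells, where same-numbered ones reached 0.322 and 0.231. The ALDOC to ALDOA shift in LNCaP95 was -0.43 with CPSF1 sh1 and -1.10 with CPSF1 sh2. The ENO2 to ENO1 shift in 22Rv1 was 0.16 with CPSF1 sh1, -0.14 with CPSF1 sh2 and -0.026 to 0.046 on leaving out libraries.

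The signs that turned belonged to values that passed the test in neither fit. PGAM1 was 0.023 in LNCaP and 0.0028 in 22Rv1 with CPSF1 sh2 alone, ENO2 was 0.033 in 22Rv1 with CPSF1 sh1 alone, and with library size scaling the PGAM1 hairpin difference in LNCaP95 was -0.0090 and the GAPDH control difference between 22Rv1 and LNCaP 0.013. Leaving out libraries gave hairpin differences of -0.22 to 0.31 for ENO2 in LNCaP, of -0.018 to 0.058 for ENO1 in 22Rv1, and in LNCaP95 of -0.013 to 0.047 for PGAM1, -0.032 to 0.018 for GAPDH, -0.045 to 0.027 for ENO1 and -0.026 to 0.0058 for PKM. It gave -0.0098 to 0.023 for the PGAM1 effect and -0.038 to 0.025 for the GAPDH control level between 22Rv1 and LNCaP. Why these values moved was not tested. Library size scaling moved the LNCaP95 changes by 0.086 to 0.091. Standard errors of the pooled changes ran from 0.0327 to 0.261 on the log2 scale, and the largest, for ALDOC in LNCaP95, also holds the difference between hairpins. For PGAM1, TPI1, GAPDH and PKM in LNCaP and 22Rv1 cells they ran from 0.0327 to 0.0471. This limits what 3 libraries a group can show for these genes.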

Other observations

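GAPDH, TPI1 and ENO2 lie in one 389.8 kb stretch of chromosome 12 that holds 22 genes of the table. Among its other genes, 2 of 11 tested were lower and 2 higher with CPSF1 shRNA in LNCaP (median log2 fold change 0.037), 4 of 12 were lower and 4 higher in LNCaP95 (-0.095), and 0 of 17 were lower and 3 higher in 22Rv1 cells (0.065). Shares over all genes tested were 31%, 33.7% and 14.3% lower and 31.1%, 33.2% and 12.7% higher in LNCaP, LNCaP95 and 22Rv1 cells. The 3 members were called lower in LNCaP and LNCaP95 cells, by amounts as different as -0.11 for GAPDH and -2.50 for ENO2 in LNCaP.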
